A study of Mus musculus with 4 samples.

Results

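Glycolysis and hypoxia response genes were examined as a list of 34 genes named by symbol: 16 glycolytic enzymes, 6 genes of sugar and lactate transport or flux control, 11 other targets of the hypoxia response, and Hif1a itself. Each gene was read from its brightest probe set, the one with the highest mean log2 signal over the 4 arrays, among probe sets that carry a single gene symbol. By this rule 32 of the 34 genes were found, out of 18194 genes in the series, and all 32 were over the floor on all 4 arrays. The floor is a signal of 89.8, the median of all signals. Gpi1 and Eno1 were not analysed here. Ero1l is carried under its current symbol Ero1a, and Gapdh was read from control probe sets, which are the ones with its symbol alone.

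The series measured RNA from primary mouse intestinal epithelial cells on 4 Affymetrix arrays, 1 for each of 4 groups. The groups were untreated cells and cells given IL-17A at 50 ng/ml, FGF2 at 5 ng/ml, or both, for 6 h. All cells came from crypts plated on fibronectin in serum-containing medium with insulin. Strain, age, oxygen level and the number of animals were not given in the sources used here. IL-17A is an inflammatory cytokine made largely by lymphocytes, and FGF2 is a fibroblast growth factor whose receptors are tyrosine kinases.

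With 1 array per group there was no replicate error and no test was run, so each value below compares arrays. Each factor has 2 readings that share no array: alone (factor against untreated) and in the presence of the other factor (both against the other factor alone). The difference between these readings is the interaction. Its spread over genes, if all of it were error, would put the SD of a log2 ratio at 0.29 where the mean log2 signal was under 8, at 0.20 from 8 to 10, at 0.13 from 10 to 12 and at 0.09 above that. True interaction is part of this yardstick. The summed signal of 6 epithelial markers (Epcam, Cdh1, Krt8, Krt18, Krt19 and Cldn7) was 1.05 times the untreated level with each factor alone and 1.08 times with both. That of 8 endothelial markers was 0.948, 1.35 and 1.44 times with IL-17A, FGF2 and both. In the same order, 8 fibroblast markers stood at 1.05, 0.806 and 0.848 times, 6 smooth muscle markers at 1.02, 0.725 and 0.675 times, and 12 enterocyte markers, of which 9 were measured, at 0.735, 0.905 and 0.674 times. Of 6 macrophage markers 5 were measured, at 1.07, 1.40 and 1.46 times. Their median log2 ratios were 0.139, -0.034 and 0.005, so most of them did not follow the sum. With FGF2 2 of the 5 were above untreated and 3 below, and the highest stood at 1.61. With both 3 were above and 2 below, and the highest stood at 1.84. All 8 fibroblast, 8 endothelial and 6 smooth muscle markers were measured, although the labels call the cells epithelial. In bulk RNA fewer cells of a type and less RNA per cell cannot be told apart. The part of these shifts in the values below was not tested.

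Glycolysis turns glucose into pyruvate in the cytosol. Glucose enters through facilitative transporters, is trapped by hexokinase, is committed by phosphofructokinase and is split into triose phosphates, which the later enzymes oxidise to pyruvate with a gain of ATP. Lactate dehydrogenase then regenerates NAD+ and a monocarboxylate transporter exports the lactate. In low oxygen the HIF transcription factors escape hydroxylation by the EGLN prolyl hydroxylases and induce many of these enzymes, together with genes of blood vessel growth, mitophagy, pH control and collagen hydroxylation. HIF1A can also be raised by growth factor and inflammatory signals at normal oxygen. The intestinal epithelium lies in a steep oxygen gradient, and its cells take part in barrier functions that depend on HIF.

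Because many of these genes are known HIF targets, their promoters were searched for the core of the hypoxia response element. The letters ACGTG, and in a second search the letters GCGTG, were sought on both strands from 250 bases before to 50 after the most upstream annotated start of each gene, in RefSeq sequences of build GRCm38.p6. Promoters were matched for 30 of the 32 genes found. Slc2a3 and Ndrg1 had no entry. ACGTG was present in 20 of the 30 (66.7%), against 25.7% of the 9873 promoters of measured genes and 19.6% of all 27025. By class it was present in 7 of 14 glycolytic enzymes, 3 of 5 transport and flux control genes and 9 of 10 other hypoxia targets. The second form, GCGTG, was present in 16 of the 30 (53.3%), against 51.6% of the promoters of measured genes. ACGTG on both strands overlaps the E-box CACGTG, which MYC and USF proteins bind and which 4 of the 30 contained (13.3%), against 10.2% of those of measured genes. These are letter matches, not measured binding sites.

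The 250 bases before the start site are shown for 5 genes that the values below turn on. Ldha lies at chr7:46845554-46845803 on the plus strand, Pgk1 at chrX:106186850-106187099 on the plus strand, Hk2 at chr6:82774455-82774704 on the minus strand, Egln3 at chr12:54203875-54204124 on the minus strand and Vegfa at chr17:46032378-46032627 on the minus strand. Each is written 5′ to 3′ along the gene, with matches of either motif on either strand in capitals.
Ldha: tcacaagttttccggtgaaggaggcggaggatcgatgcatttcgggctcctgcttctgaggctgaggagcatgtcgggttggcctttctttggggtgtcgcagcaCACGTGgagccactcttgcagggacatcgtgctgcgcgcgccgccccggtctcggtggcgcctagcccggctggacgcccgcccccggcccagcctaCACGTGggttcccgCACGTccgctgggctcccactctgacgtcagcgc
Pgk1: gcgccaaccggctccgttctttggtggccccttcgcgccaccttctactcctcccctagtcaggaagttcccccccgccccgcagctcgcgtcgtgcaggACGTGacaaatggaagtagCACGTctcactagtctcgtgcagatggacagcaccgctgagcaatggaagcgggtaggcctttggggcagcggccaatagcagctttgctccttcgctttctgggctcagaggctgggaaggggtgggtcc
Hk2: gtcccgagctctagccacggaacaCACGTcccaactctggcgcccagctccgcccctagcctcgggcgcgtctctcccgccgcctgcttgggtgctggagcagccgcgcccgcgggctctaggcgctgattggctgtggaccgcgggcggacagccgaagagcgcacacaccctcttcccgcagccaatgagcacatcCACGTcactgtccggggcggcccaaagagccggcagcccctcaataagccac
Egln3: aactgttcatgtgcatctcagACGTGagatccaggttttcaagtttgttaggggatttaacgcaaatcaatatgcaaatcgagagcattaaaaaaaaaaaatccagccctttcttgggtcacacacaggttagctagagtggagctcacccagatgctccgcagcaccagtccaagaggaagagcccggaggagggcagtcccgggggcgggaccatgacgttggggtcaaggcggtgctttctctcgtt
Vegfa: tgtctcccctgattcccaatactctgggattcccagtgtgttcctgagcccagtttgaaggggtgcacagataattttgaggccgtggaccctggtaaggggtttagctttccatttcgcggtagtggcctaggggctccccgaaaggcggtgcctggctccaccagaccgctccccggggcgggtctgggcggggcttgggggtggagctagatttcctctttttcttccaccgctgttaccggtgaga
Ldha has 3 such runs, and the pair at positions -145 and -48 from the start site are full CACGTG. Pgk1 has 2, which begin at -150 and -131, and Hk2 has 2, at -226 and -52. Egln3 has 1, at -229. Vegfa has 0 in this window.

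Most of the list differed little from untreated. On the array with both factors 24 of 32 genes were above untreated and 8 below, with a median log2 ratio of 0.19, while the median of all 12259 measured genes was 0.00. The medians with IL-17A and FGF2 alone were 0.14 and 0.10, against -0.01 for all measured genes in each case. Vegfa was the single gene at least 1.5-fold different from untreated, and it was higher with FGF2 and with both factors. With both factors that is 1 of 32 genes at least 1.5-fold higher, where the share over all measured genes was 3.34%, and 0 of 32 at least 1.5-fold lower, where it was 6.52%. With FGF2 alone the counts were 1 higher and 0 lower, beside shares of 2.34% and 4.82%. With IL-17A alone they were 0 and 0, beside 1.44% and 1.95%. Both factors against IL-17A gave 0 and 0, beside 2.8% and 4.09%, and both against FGF2 gave 0 and 0, beside 1.83% and 2.06%. With so few genes these counts are near the shares over all measured genes. At 2-fold the counts were 0 of 32 in both directions in all 5 comparisons. The shares of measured genes at least 2-fold higher and lower were 0.375% and 0.228% with IL-17A, 0.473% and 0.963% with FGF2, and 0.905% and 1.73% with both. They were 0.547% and 0.857% for both against IL-17A, and 0.367% and 0.269% for both against FGF2.

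**Figure D1:**
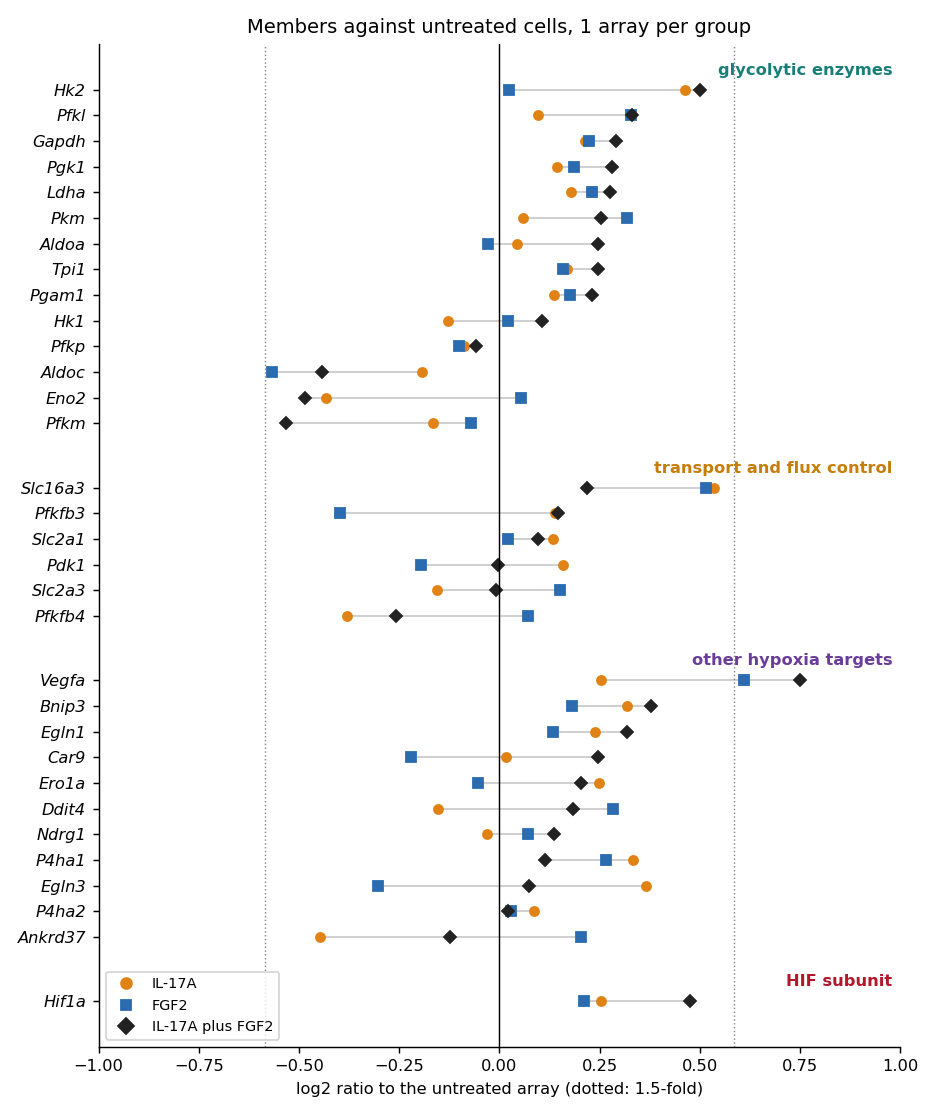
Log2 ratio of each of the 32 genes to the untreated array, on the arrays with IL-17A (circles), FGF2 (squares) and both (diamonds), 1 array per group, sorted within class by the value with both; grey bars join the lowest and highest of the 3. Vegfa, at 0.61 with FGF2 and 0.75 with both, is the one gene beyond the dotted 1.5-fold lines.

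The glycolytic enzymes were read in 2 groups by brightness, split at a mean log2 signal of 12. The 7 brightest, with mean log2 signals over 12, were Aldoa, Tpi1, Gapdh, Pgk1, Pgam1, Pkm and Ldha, which act from the aldolase step down to lactate. All 7 were above untreated with both factors, with log2 ratios between 0.23 and 0.29 (median 0.25). Of all measured genes this bright 72.3% were above untreated on that array. With IL-17A alone they lay between 0.04 and 0.21 (median 0.14) and with FGF2 alone between -0.03 and 0.32 (median 0.19).

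Ldha, which makes lactate from pyruvate, had signals of 15452 on the untreated array, 17478 with IL-17A, 18135 with FGF2 and 18707 with both, 1.21-fold above untreated. Pgk1, the first ATP-producing step, had 13677, 15103, 15550 and 16605 in the same order, also 1.21-fold, although 1 of its 2 other probe sets was lowest with FGF2 (log2 -0.13). Gapdh, which oxidises glyceraldehyde phosphate and is often used as a reference gene, had 18476, 21407, 21575 and 22588, which is 1.22-fold. In these probe sets of all 3 the untreated array was lowest, the IL-17A array next, then FGF2, then both. Another Gapdh probe set, at 16370, 18170, 18930 and 18890, had both just below FGF2, while the remaining one kept the order. Under quantile normalization all 3 genes were highest with FGF2. Their log2 ratios with FGF2 and with both were then 0.14 and 0.06 for Ldha, 0.09 and 0.07 for Pgk1, and 0.09 and 0.03 for Gapdh.

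Pgam1, the mutase that follows, also rose in the order untreated, IL-17A, FGF2, both, with 7467, 8208, 8439 and 8763. Tpi1, which interconverts the triose phosphates, had 11993, 13480, 13378 and 14218, so the single factors lay close together between the extremes. Pkm, the pyruvate kinase of proliferating cells, had 5644, 5879, 7035 and 6724 and was highest with FGF2 alone, 1.25-fold above untreated. Aldoa, the aldolase of muscle and most other tissues, had 14910, 15377, 14628 and 17693, with a log2 ratio of 0.25 with both factors and values near 0 with each alone. Its probe sets disagreed. With both factors the other 4 stood at 0.22, 0.15, 0.25 and -0.12, and with FGF2 alone 3 of them were above untreated, at 0.15, 0.15 and 0.12. Under quantile normalization the Aldoa ratio with both was 0.04.

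Bright genes as a whole were also above untreated, by less at the median than these enzymes. Over the 1104 measured genes with a mean log2 signal over 12, the median log2 ratio to untreated was 0.05 with IL-17A, 0.05 with FGF2 and 0.11 with both. The order untreated, IL-17A, FGF2, both, from low to high, was held by 4 of the 7 enzymes (57.1%), by 21.6% of these bright genes and by 7.96% of all measured genes. The combined array was highest for 6 of the 7 enzymes, for 50.0% of the bright genes and for 28.0% of all measured genes. Under quantile normalization, which gives all arrays one distribution of signals, the median of the bright genes with both factors became 0.00 and that of the 7 enzymes 0.07, with all 7 still above 0. With IL-17A and FGF2 alone the quantile medians of the 7 were 0.06 and 0.09. For both factors against FGF2 alone, 2 of the 7 were then above 0, with a median of -0.02. The top rank of the combined array thus did not hold under this scaling for most of the 7. The order of the arrays also changed for Ldha, Pgk1 and Gapdh, as given above.

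**Figure D2:**
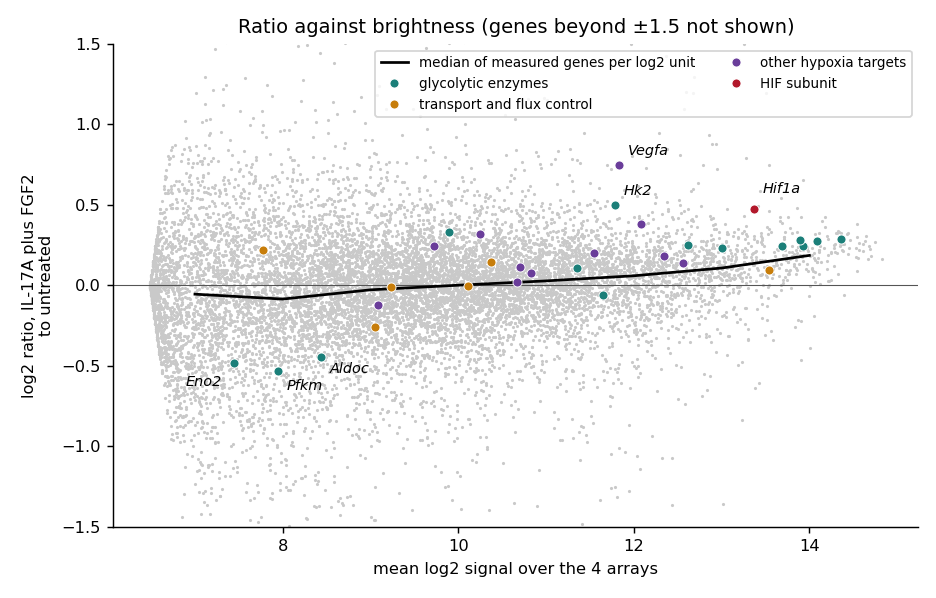
Log2 ratio of the combined array to the untreated array against mean log2 signal over the 4 arrays, for all measured genes (grey points), with their median per log2 unit (black line) and the listed genes in the colours of their class. The bright glycolytic enzymes at the right, with ratios of 0.23 to 0.29, lie where the median of all genes is itself above 0. Vegfa, Hk2 and Hif1a stand further above the line, and Pfkm, Eno2 and Aldoc lie below it, at -0.53, -0.48 and -0.44.

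The other 7 glycolytic enzymes, with mean log2 signals of 12 or under, did not share that direction: 3 were above untreated with both factors and 4 below, with a median log2 ratio of -0.06. Hk2, the inducible hexokinase bound to mitochondria, was the highest of them. Its signals were 2970 on the untreated array, 4091 with IL-17A, 3019 with FGF2 and 4200 with both. The 2 arrays with IL-17A were thus high and the 2 without it low. Of all measured genes 25.8% were higher in both readings of IL-17A, and 2.39% by at least 1.2-fold in each. IL-17A went with 1.38-fold more Hk2 alone and 1.39-fold more in the presence of FGF2 (log2 0.46 and 0.48), while the readings for FGF2 were 1.02-fold and 1.03-fold. An SD of 0.13 applies to genes of its brightness. Hk2 was picked as the highest of these enzymes, so its size against this SD cannot show a change. Over all settings the reading for IL-17A alone ranged from 0.45 to 0.49 and that in the presence of FGF2 from 0.46 to 0.48. Hk2 has 1 probe set, so no other probe set checks it.

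Hk1, the constitutive hexokinase, had signals of 2624, 2402, 2663 and 2827 in that order, a span of 1.18-fold without the pattern of Hk2. Pfkl, the liver-type phosphofructokinase, had 837, 895, 1050 and 1051, and was 1.25-fold higher with FGF2 and 1.26-fold with both. Its second probe set, at 467, 486, 464 and 558, did not show the difference with FGF2 alone, while a dimmer one did (1.19-fold). Pfkp, the platelet type, varied by 1.07-fold over the 4 arrays in its brightest probe set, the smallest span among the enzymes. A dimmer Pfkp probe set over the floor on all arrays, at 406, 449, 449 and 335, was lowest with both, 1.21-fold below untreated.

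The enzymes furthest below untreated with both factors were Pfkm, Eno2 and Aldoc. In the range of Pfkm and Eno2, a mean log2 signal below 8, the median log2 ratio of all measured genes with both was -0.06, with 36.0% above 0. Pfkm, the muscle-type phosphofructokinase, had 282, 251, 268 and 195 and was lowest with both factors, 1.45-fold below untreated. Eno2, the neuronal enolase, had 202, 150, 210 and 145. It was low on both arrays with IL-17A, 1.35-fold below untreated alone and 1.45-fold below FGF2 in its presence. Aldoc, the brain-type aldolase, had 427, 373, 288 and 314, and was 1.48-fold lower with FGF2 and 1.36-fold lower with both. Pfkm and Eno2 are in the dimmest range, where the SD is 0.29, and Aldoc in that of 0.20. The log2 ratios of -0.53 (Pfkm) and -0.57 (Aldoc, FGF2) and the Eno2 readings of -0.43 and -0.54 are larger than 1 such SD. These genes were picked as the lowest enzymes, so their size against 1 SD cannot show a change. The SD under 8 also includes genes with signals raised to the floor, which makes their ratios smaller. The summed signal of 7 glial and neuronal markers, of which 6 were measured, was 1.06 and 1.10 times untreated on the arrays with IL-17A alone and with both, and 0.964 times with FGF2. Its members differed: Gfap, an astrocyte and enteric glial filament, had signals of 476, 543, 168 and 305, which is 2.84-fold lower with FGF2 and 1.56-fold lower with both, and S100b was at log2 -0.38 with FGF2 and -0.27 with both. Aldoc was lowest on the same array as Gfap and S100b. Of the 6 measured markers 3 were above untreated and 3 below with FGF2, at a median log2 ratio of -0.06. With both factors 4 were above and 2 below, at a median of 0.23. The part of glial and neuronal cells in the Aldoc values was not tested.

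Transport and flux control genes had no common direction with both factors: 3 of 6 were above untreated and 3 below, with a median log2 ratio of 0.05. Slc2a1, the basal glucose transporter GLUT1, was bright, with signals of 11395 without treatment, 12509 with IL-17A, 11558 with FGF2 and 12178 with both, and varied by 1.10-fold. Slc2a3, the transporter GLUT3, had 605, 543, 672 and 602 and was within 1.01-fold of untreated with both. Pdk1, the kinase that closes the entry of pyruvate to mitochondria, had 1112, 1241, 972 and 1109. Its other probe sets over the floor, at 533, 581, 555 and 579 and at 274, 380, 382 and 427, were higher on all 3 treated arrays. The Pdk1 probe sets thus disagree on the FGF2 and combined arrays.

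Slc16a3, the lactate exporter MCT4, had signals of 175, 254, 250 and 204 in the order above. It was 1.45-fold and 1.43-fold higher with IL-17A and FGF2 alone but 1.16-fold higher with both. Its interaction of -0.83 was the largest of the list in size, yet the 99th percentile of absolute interactions among genes of its brightness was 1.17. Pfkfb3 makes fructose 2,6-bisphosphate, the activator of phosphofructokinase. It had 1347, 1483, 1023 and 1490, low on the FGF2 array alone, 1.32-fold below untreated, and 1.46-fold higher when IL-17A was added to FGF2. Pfkfb4, its relative, had 583, 448, 613 and 488. It was low on both arrays with IL-17A, 1.30-fold below untreated alone and 1.26-fold below in the presence of FGF2. For each of the 32 genes the interaction lay inside the 99th percentile for its brightness (0 of 32 beyond it).

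Among the other hypoxia targets 10 of 11 were above untreated with both factors (90.9%) and 1, Ankrd37, below. The share above untreated was 48.2% over all measured genes and 55.3% at a mean log2 signal from 10 to 12. The median log2 ratio of the targets was 0.18 with both, 0.24 with IL-17A alone and 0.13 with FGF2 alone. Vegfa, the vascular growth factor, led. Its signals were 2756 on the untreated array, 3287 with IL-17A, 4209 with FGF2 and 4637 with both, so the 2 arrays with FGF2 lay above the 2 without it. FGF2 went with 1.53-fold more Vegfa alone and 1.41-fold more in the presence of IL-17A (log2 0.61 and 0.50), and the combination with 1.68-fold more. Of all measured genes 31.6% were higher in both readings of FGF2, and 5.44% by at least 1.2-fold in each. A second Vegfa probe set read 537, 659, 1170 and 1030, again with the FGF2 arrays high, and log2 ratios to untreated of 1.12 with FGF2 and 0.94 with both. Over all settings the ratio to untreated ranged from 0.59 to 0.87 with FGF2 and from 0.72 to 0.85 with both. Endothelial markers were also high on these 2 arrays, at 1.35 and 1.44 times untreated in sum, and their part in the Vegfa values was not tested.

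Egln3, a prolyl hydroxylase that marks HIF for destruction and is itself a HIF target, had opposite signs for IL-17A and FGF2 in all readings. Its signals were 1775 on the untreated array, 2288 with IL-17A, 1439 with FGF2 and 1869 with both. IL-17A went with 1.29-fold more alone and 1.30-fold more in the presence of FGF2. FGF2 went with 1.23-fold less alone and 1.22-fold less in the presence of IL-17A. The second probe set, at 313, 510, 206 and 312, was likewise highest with IL-17A and lowest with FGF2, with larger ratios of 0.71 and -0.60. With both factors neither probe set differed much from untreated (log2 0.07 and 0.00). A gain with IL-17A of at least 1.2-fold in both pairs, with a loss of that size with FGF2 in both, was met by Egln3 alone among the 32 (3.12%) and by 0.351% of all measured genes. The 1.2-fold limit was chosen after seeing the data, and the Egln3 readings of FGF2 lie close to it. These shares are therefore no measure of how rare the pattern is. With no limit on size, Pdk1 and Ero1a had the same signs as Egln3, higher with IL-17A and lower with FGF2 in both pairs. The Ero1a readings of FGF2 were small, at -0.05 and -0.05. Ankrd37, Ddit4, Pfkfb4 and Slc2a3 had the opposite signs. Other probe sets did not all share these signs. With FGF2 alone those over the floor stood at 0.06 and 0.48 for Pdk1, 0.21 and -0.13 for Ero1a and -0.04 for Slc2a3. The share of all measured genes with such signs was not counted. Ankrd37 stood at log2 -0.45 and -0.33 for IL-17A and at 0.20 and 0.32 for FGF2. Egln1, the main oxygen-sensing hydroxylase, had 1078, 1271, 1182 and 1344 and no such split. Its second probe set, at 1218, 1220, 1159 and 1245, was nearly level.

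**Figure D3:**
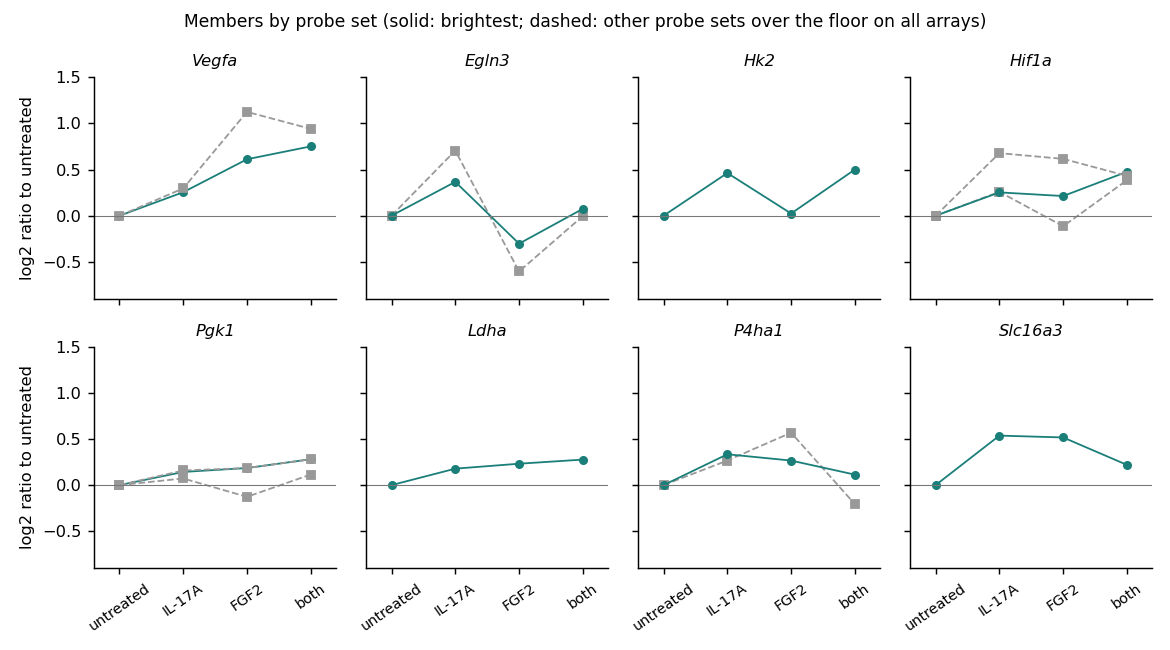
Log2 ratio to untreated on each array for 8 genes, the brightest probe set solid and other probe sets over the floor on all arrays dashed; lines only join the arrays of a probe set. Both probe sets of Vegfa are highest on the 2 arrays with FGF2, and both of Egln3 are highest with IL-17A (0.37 and 0.71) and lowest with FGF2 (-0.30 and -0.60).

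Hif1a, the oxygen-regulated subunit, was bright and above untreated on all treated arrays, with signals of 8983, 10701, 10407 and 12490. It was 1.19-fold higher with IL-17A, 1.16-fold with FGF2 and 1.39-fold with both. All 3 Hif1a probe sets over the floor on every array were higher with both factors, by log2 0.39 to 0.48. With FGF2 alone they disagreed, at 0.21, -0.11 and 0.62. Under quantile normalization the ratio with both was 0.36. HIF1A is controlled mainly by protein stability, which arrays do not measure.

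Bnip3, which drives mitophagy, had signals of 3734, 4655, 4236 and 4854 and was 1.25-fold, 1.13-fold and 1.30-fold above untreated with IL-17A, FGF2 and both. Ddit4, an mTORC1 inhibitor induced by stress, had 4938, 4440, 6014 and 5612. Both arrays with FGF2 were high, by 1.22-fold alone and 1.26-fold in the presence of IL-17A. Ero1a, the disulfide-forming oxidase of the endoplasmic reticulum, had 2793, 3320, 2689 and 3217, high on both arrays with IL-17A by log2 0.25 and 0.26. A second bright Ero1a probe set, at 2825, 3248, 2577 and 3201, had the same order, and a dimmer one, at 867, 1044, 1002 and 865, did not.

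Ankrd37 had 580, 425, 668 and 533 and was low on both arrays with IL-17A, by 1.36-fold against untreated and 1.25-fold against FGF2. Car9, the surface carbonic anhydrase and a common marker of hypoxia, had 839, 848, 720 and 995. It was 1.19-fold above untreated with both, while with IL-17A alone it was 1.01-fold above untreated. P4ha1, a collagen prolyl hydroxylase subunit, had 1479, 1864, 1778 and 1600, higher with each factor alone than with both. Its second probe set, at 472, 567, 699 and 409, had the combined array lowest. P4ha2 varied by 1.06-fold, the smallest span of the list. Ndrg1 varied by 1.12-fold in its brightest probe set, while its other 4 probe sets disagreed on the direction with both factors, with log2 ratios from -0.07 to 0.28.

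Across the list, 18 of 32 genes were higher with IL-17A in both pairs of arrays (56.2%) and 6 were lower in both. For FGF2 the counts were 18 and 5. Of all measured genes 25.8% were higher in both readings of IL-17A and 31.6% in those of FGF2. Among the bright genes with mean log2 over 12 the shares were 53.4% and 53.8%. Only 12 of the 32 listed genes are that bright, so the bright genes are not a matched background for the list. With at least 1.2-fold asked of each reading, IL-17A left Hk2 and Egln3 higher and Eno2, Pfkfb4 and Ankrd37 lower, which is 6.25% and 9.38% of 32 beside 2.39% and 3.37% of all measured genes. FGF2 left Vegfa and Ddit4 higher and Egln3 lower, 6.25% and 3.12% beside 5.44% and 8.70%. The 1.2-fold limit was chosen after seeing the data. The Vegfa readings of IL-17A were 1.19-fold and 1.10-fold.

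**Figure D4:**
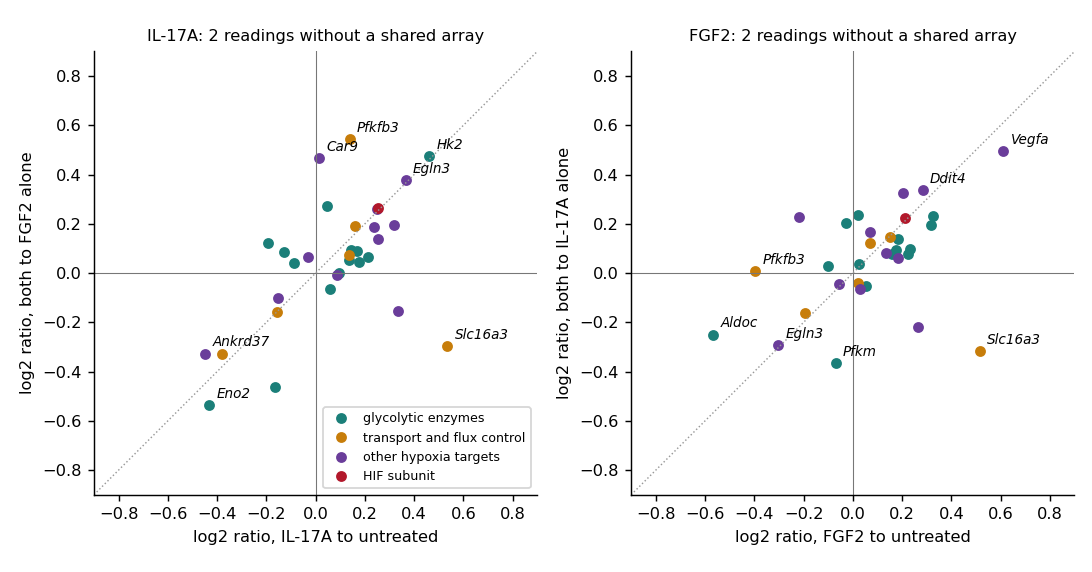
The 2 readings of each factor for the 32 genes as log2 ratios: factor against untreated on the horizontal axis and both factors against the other factor alone on the vertical axis, IL-17A at left and FGF2 at right, dotted where the readings are equal. Hk2 and Egln3 lie high in both readings of IL-17A (0.46 and 0.48, 0.37 and 0.38), Vegfa in both of FGF2 (0.61 and 0.50), and Slc16a3 is high in 1 reading of each factor and low in the other.

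Glycolytic enzymes and other hypoxia targets were then set against each other over the arrays. With both factors the medians were 0.25 for 14 enzymes and 0.18 for 11 targets, a difference of 0.06. With IL-17A they were 0.08 and 0.24 (difference -0.16), and with FGF2 0.11 and 0.13 (difference -0.03). For both factors against IL-17A the difference was 0.00, and against FGF2 it was -0.08. The difference turned sign in every comparison under at least 1 setting. With both factors it was -0.06 under quantile normalization, and with IL-17A it was 0.00 when each gene was read from the mean of its probe sets. The enzymes were brighter, with a median mean log2 signal of 12.20 against 10.83 for the targets. Within each class the values spread more than the medians differed: with both factors the enzymes ran from -0.53 to 0.50 and the targets from -0.12 to 0.75.

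**Figure D5:**
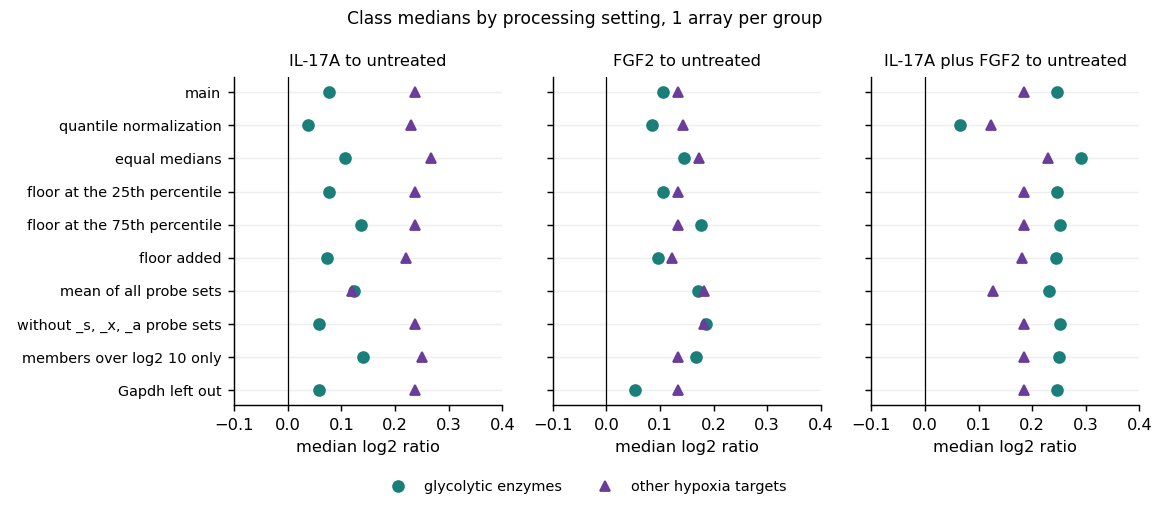
Median log2 ratio to untreated of the glycolytic enzymes (circles) and the other hypoxia targets (triangles) on each treated array, one row per processing setting. Medians stay above 0 in every row, those with both factors are smallest under quantile normalization (0.07 for the enzymes and 0.12 for the targets), and the order of the classes changes between rows.

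Related genes outside the list were read from a further list of 105 pathway genes, of which 85 were measured. With both factors 2 of the 85 were at least 1.5-fold higher and 10 lower, with a median log2 ratio of -0.02. The shares over all measured genes were 3.34% and 6.52%. Of the 21 other glycolysis genes measured, 0 were higher and 4 lower. These were Hkdc1, a hexokinase-like enzyme (2.40-fold lower), Pklr, the liver-type pyruvate kinase (1.79-fold), Pfkfb2, which like Pfkfb3 sets fructose 2,6-bisphosphate (1.64-fold), and Pdk4, the fasting-induced pyruvate dehydrogenase kinase (2.74-fold). Pdk4 signals were 521, 329, 287 and 190 in the usual order, and those of Hkdc1 were 255, 141, 166 and 106. Both were lower with each factor alone and lowest with both. Among 5 gluconeogenesis genes, Fbp2, a fructose bisphosphatase, was 1.88-fold lower and Slc37a4, the glucose 6-phosphate transporter, 1.67-fold lower, while G6pc3, a ubiquitous glucose 6-phosphatase, was 1.58-fold higher. Enterocyte markers had a median log2 ratio of -1.09 on the same array, 7 of 9 at least 1.5-fold lower, and their part in these values was not tested.

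Of 37 other hypoxia genes measured, 1 was at least 1.5-fold higher with both factors and 4 were lower, beside the same shares of 3.34% and 6.52%. Cited2, which restrains HIF by competing for its coactivator, was 1.75-fold higher with both and 1.58-fold higher with FGF2, with signals of 4471, 4910, 7068 and 7840. As for Vegfa, the 2 arrays with FGF2 were high. Lower were Selenbp1 (2.59-fold), Ppp1r3c, a glycogen-targeting subunit (at least 2.54-fold), Angptl4, a lipoprotein lipase inhibitor (1.95-fold), and Lox, the collagen cross-linking oxidase (1.61-fold). Angptl4 was also 1.56-fold and 1.57-fold lower with IL-17A and FGF2 alone. Lox signals were 8634, 9045, 5721 and 5352, low on both arrays with FGF2, where fibroblast markers were 0.806 and 0.848 times untreated. Adm, the vasodilator adrenomedullin, was 1.60-fold lower with both than with IL-17A alone. Edn1, the vasoconstrictor endothelin, was 1.71-fold lower with FGF2, and Kdm4b, a histone demethylase, 1.68-fold higher with IL-17A from a signal of 92 near the floor.

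The neighbouring pathways differed little. All 6 pentose phosphate genes measured were above untreated with both factors, with a median of 0.20 and values from 0.01 to 0.30. The 16 citrate cycle genes had a median of 0.05, with 11 above untreated (68.8%), where the share over all measured genes was 48.2%. In either list 0 genes were at least 1.5-fold different in any of the 5 comparisons.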

How the data were processed

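RNA from 4 samples was measured on 4 arrays. Each deposited value is the log2 signal of a probe set, made by the authors with MAS5, per the submitters' processing notes. The MAS5 version is not given in the sources used here. This method subtracts mismatch signal, which leaves dim values noisy. The 2% trimmed mean of the antilog signals was 500.0 on every array. Of 45101 probe sets, 64 were controls. These were left out except 3 for Gapdh. Symbols came from the platform annotation and were updated by Entrez identifier to GRCm38.p6 (34744 of 34948 probe sets matched).

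The brightest probe set stood for each gene, signals under the floor (the median signal, 89.8) were raised to it, and genes over it on any array are called measured (12259). A gene was counted as higher or lower at 1.5-fold. The number of arrays, 1 per group, limits the precision, so no test was run. The members and lists were chosen with earlier results of these data known. All members were named, and related genes where at least 1.5-fold different in any of 5 comparisons. Alternatives were 2 other scalings, 2 other floors, adding the floor, the mean of all probe sets, the omission of probe sets open to several transcripts, and a fold of 2. A gene's value was taken to hold where it moved by less than the SD of its brightness. The limit of 1.2-fold, the restriction to bright members and the omission of Gapdh were chosen after seeing the data. Python 3.11.15, numpy 2.4.6 and pandas 2.3.3 were used, and the scripts were tested on simulated data.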

Additional observations from a re-analysis of the deposited data

How the results depend on the processing

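Under every scaling, floor and probe set rule tried, the counts of listed genes at least 1.5-fold different stayed at 1 higher with FGF2, 1 higher with both and 0 elsewhere. At 2-fold, 0 genes were higher with FGF2 and 0 with both. Quantile normalization took the median of the glycolytic enzymes with both factors from 0.2462 to 0.0658. When each gene was read from the mean of its probe sets, enzymes minus targets was 0.0044 with IL-17A and 0.06 for both against FGF2, and the median of the targets for both against FGF2 was -0.0070. All other class medians and differences moved by less than 0.13, the SD for single genes with a mean log2 signal from 10 to 12. A change of sign can pass this limit. With both factors, enzymes minus targets went from 0.0617 to -0.0566 under quantile normalization and was counted as not moved. Of single genes' values, 37 moved by more with the mean of the probe sets, 24 under quantile normalization, 11 without probe sets open to several transcripts, and 0 under the other settings. Signal over background limits the dim genes Eno2, Pfkm and Slc16a3. No paired analysis was possible because each group has 1 array.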
